A study of Mus musculus with 6 samples.

Results

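The genes described are 10 mouse genes of the guanylate-binding protein (GBP) and immunity-related GTPase (IRG) families, *Gbp2*, *Gbp3*, *Gbp7*, *Gbp6*, *Gbp9*, *Gbp10*, *Gm43302*, *Irgm1*, *Irgm2*, and *Igtp*, out of 56923 genes listed in the count table. mRNA-Seq was performed on the LVs of 3 *Lztr1* R409C/+ and 3 WT male mice, each sequenced as its own library at the age of 12 weeks. LZTR1 is the substrate adaptor of a CUL3 ubiquitin ligase that acts on RAS family proteins, and its R409C substitution models Noonan syndrome with cardiac hypertrophy. The knock-in allele was made with CRISPR/Cas9 and is present in every cell of the animal in 1 copy, the line was backcrossed to C57BL/6J, and the hearts of both groups were perfused with PBS before collection. The sample labels call the groups wild-type and mutant without naming the allele, which is taken from the study's text. *Gm43302* was chosen because it had 0 counts in every *Lztr1* R409C/+ mouse, and the other 9 genes were chosen by family name with results of these libraries already known, so their levels in the 2 genotypes are given as a description. Calls from the fit over all genes are printed for them beside the share of all tested genes, and nothing is read from them.

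GBPs are large GTPases of the dynamin superfamily that are induced by interferons, above all by IFN-γ. They assemble on the membranes of intracellular bacteria and parasites, help to break the vacuoles that hold them, and pass microbial products to inflammasomes. IRGs are smaller GTPases with the same induction: Irgm1, Irgm2, and Igtp (also called Irgm3) sit on the cell's own membranes and keep the effector IRGs, such as Iigp1, inactive there. In the heart, members of both families can be transcribed by resident macrophages, endothelial cells, fibroblasts, and cardiomyocytes, and in LV tissue fewer cells of a type and less RNA per cell cannot be told apart.

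Total counts ranged from 66130887 to 72641124 per mouse, and 3 counts corresponded to between 0.0317 and 0.0541 CPM (counts scaled to a common library size with TMM normalization). Floors and intervals cover counting error only. The share of mitochondrially encoded genes was 13.8% in WT replicate 3 (95% Wilson interval, 13.8% to 13.9%), against 29.7% to 45.4% in the other 5 mice. *Lztr1* had 24.2, 24.2, and 22.2 CPM in WT and 23.8, 27.9, and 25.3 CPM in *Lztr1* R409C/+ mice, with overlap. A single-base substitution leaves the transcript in place, so this level does not check the labels. Nothing in the labels says whether mice shared a litter or a batch, and p-values measure only the spread between these mice.

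*Gm43302* overlaps both *Gbp6* and *Gbp10* on the minus strand of chromosome 5, in the GBP cluster that also holds *Gbp9*. In the GENCODE annotation of GRCm39, *Gbp6* (ENSMUSG00000104713) spans chr5:105418568-105443751, *Gbp10* (ENSMUSG00000105096) spans chr5:105362773-105412666, and *Gm43302* (ENSMUSG00000079362) spans chr5:105362773-105441561. *Gm43302* has 1 annotated transcript, which carries a readthrough tag, meaning that it joins exons of neighboring genes. Of its 11 exons, the first 10 lie within exons of *Gbp6* and the last, chr5:105362773-105365356, is the last exon of *Gbp10*. Every one of its 4310 exonic bases therefore lies in an exon of another gene, 1726 in *Gbp6* and 2584 in *Gbp10*. Of its 10 splice junctions, 9 are also annotated for *Gbp6* or *Gbp10*, and its own is the junction over the intron of 56696 bases between exons 10 and 11.

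**Figure D1:**
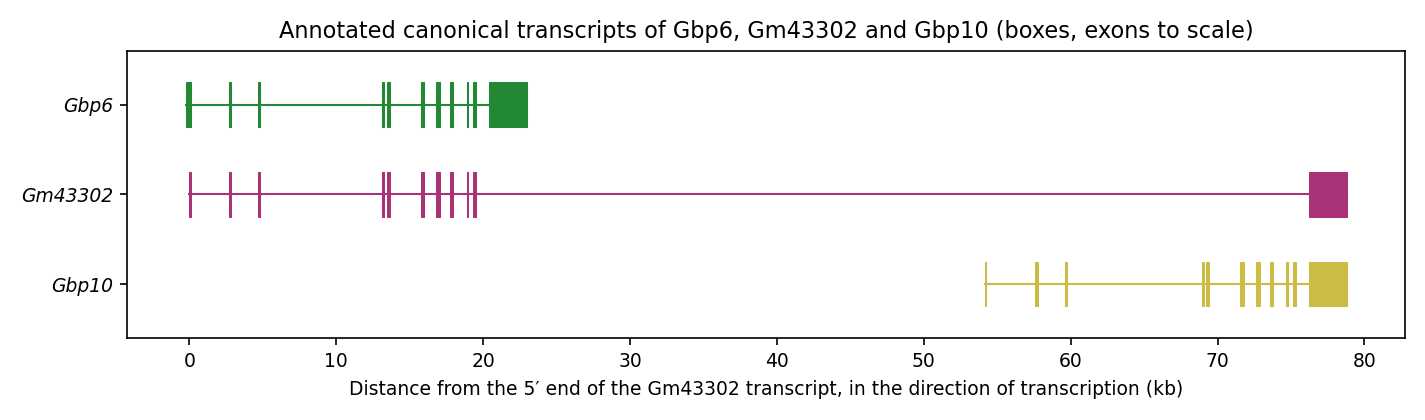
Exons (boxes, to scale) and introns (lines) of the canonical *Gbp6*, *Gm43302*, and *Gbp10* transcripts, by distance in kb from the 5′ end of *Gm43302* in the direction of transcription. The first 10 exons of *Gm43302* stand under exons of *Gbp6*, and its last exon stands over the last exon of *Gbp10*.

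The coding sequence around the junction into the last exon is shown because it holds the only stretch in which the *Gm43302* transcript differs from both neighbors. Each line gives the last 30 bases of the exon before the junction and the first 60 bases of the last exon, 5′ to 3′ on the minus strand of GRCm39, with capitals at the bases where *Gbp6* and *Gbp10* differ. The stretches are chr5:105422053-105422082 with chr5:105421094-105421153 for *Gbp6*, chr5:105422053-105422082 with chr5:105365297-105365356 for *Gm43302*, and chr5:105366253-105366282 with chr5:105365297-105365356 for *Gbp10*.
Gbp6: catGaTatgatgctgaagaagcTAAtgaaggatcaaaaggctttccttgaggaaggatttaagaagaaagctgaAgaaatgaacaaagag
Gm43302: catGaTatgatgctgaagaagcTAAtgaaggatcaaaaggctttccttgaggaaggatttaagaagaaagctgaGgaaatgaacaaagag
Gbp10: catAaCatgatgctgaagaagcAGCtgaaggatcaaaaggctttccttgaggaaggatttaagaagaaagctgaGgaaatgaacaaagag
*Gm43302* matched *Gbp6* in the 5 positions before the junction and *Gbp10* in the position after it. The nearest of these positions lie 6 bases before the junction and at base 45 of the last exon, so the shortest stretch that holds both spans 51 bases. Across 8 exon pairs of equal length, *Gbp6* and *Gbp10* differed at 24 of 1466 bases, an identity of 98.4%. Of the 100-base windows along the *Gm43302* transcript, 98.8% occurred in the transcripts of another gene and 50 were its own, against 82.2% shared for *Gbp6* and 76.1% shared for *Gbp10*. Reads of this locus are thus uncertain between the 3 genes, and how StringTie divided them is not given in the sources used here.

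In the WT mice, the counts of *Gm43302* were 1108, 1267, and 2567, and each *Lztr1* R409C/+ mouse had 0. In CPM, the WT mice had 16.8, 19.7, and 27.1, a mean of 21.2 ± 5.32 (SD, n = 3). The WT mean was 462-fold the mean floor of 3 counts in the *Lztr1* R409C/+ libraries, 0.0458 CPM. This ratio covers counts as they were assigned. All exonic bases of *Gm43302* lie in exons of *Gbp6* or *Gbp10*, so the ratio gives no bound on the level of the transcript. By edgeR (quasi-likelihood test, Benjamini-Hochberg adjustment), 1 of 17212 tested genes was past an adjusted p of 0.05 in the lower direction, 0.00581%, and this gene is *Gm43302*, which the choice of genes had fixed. DESeq2 called 0.0813% of the tested genes lower, *Gm43302* included.

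*Gbp10* had 3.80, 6.26, and 9.65 CPM in WT and 10.9, 18.4, and 9.03 CPM in *Lztr1* R409C/+ mice. The groups overlapped, since WT replicate 3 lay above *Lztr1* R409C/+ replicate 3, and the means were 6.57 ± 2.94 and 12.8 ± 4.96 (SD, n = 3 each). Its log2 fold change, *Lztr1* R409C/+ over WT, was 0.95 (standard error 0.34), and 0.59 without *Lztr1* R409C/+ replicate 2 or 1.34 without WT replicate 3. *Gbp6* had 33.8, 39.9, and 64.5 CPM in WT and 36.0, 55.3, and 39.5 CPM in *Lztr1* R409C/+ mice, overlapping over most of the range. Its log2 fold change was -0.08 (standard error 0.24). It was -0.29 without *Lztr1* R409C/+ replicate 2, and 0.24 without WT replicate 3, the mouse with the highest *Gbp6* level and the lowest mitochondrial share. With library size only, the log2 fold change of *Gbp6* was -0.31.

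Because the 3 genes share sequence, their counts were also taken as a sum. The sum was 54.4, 65.8, and 101.3 CPM in WT and 46.9, 73.7, and 48.6 CPM in *Lztr1* R409C/+ mice. The groups overlapped, with 73.8 ± 24.4 and 56.4 ± 15.0 CPM (SD, n = 3 each), and the log2 ratio of the means was -0.39. It ranged from -0.64 to -0.09 when each mouse was left out in turn, with the value nearest 0 without WT replicate 3. With library size only, this log2 ratio was -0.62. A fit in which the 3 genes formed 1 feature gave a log2 fold change of -0.39 (standard error 0.24), a difference within the spread between mice.

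The shares of the 3 genes in this sum did not overlap between the genotypes. *Gm43302* took 30.8% (95% Wilson interval, 29.3% to 32.4%), 29.9% (28.5% to 31.3%), and 26.8% (25.9% to 27.6%) of the counts in WT replicates 1, 2, and 3. In the *Lztr1* R409C/+ mice it took 0 of 2600, 0 of 5269, and 0 of 3521 counts, for which a floor of 3 counts corresponds to shares of up to 0.115%, 0.0569%, and 0.0852%, and the upper limits of the 95% Wilson intervals are 0.148%, 0.0729%, and 0.109%. *Gbp10* took 10.1% (95% Wilson interval, 8.97% to 11.3%), 13.6% (12.4% to 14.8%), and 13.0% (12.3% to 13.8%) of the counts of *Gbp6* and *Gbp10* together in WT replicates 1, 2, and 3. In *Lztr1* R409C/+ replicates 1, 2, and 3, this share was 23.2% (21.6% to 24.8%), 25.0% (23.8% to 26.1%), and 18.6% (17.4% to 19.9%), without overlap between the groups. *Gbp6* and *Gbp10* together had 52.6 ± 19.1 CPM in WT and 56.4 ± 15.0 CPM in *Lztr1* R409C/+ mice (SD, n = 3 each), with overlap. The 3 shares add up to the whole, so a feature listed at 0 counts raises the shares of the others by construction. Whether the reads of the locus were assigned in the same way in all 6 libraries was not tested.

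**Figure D2:**
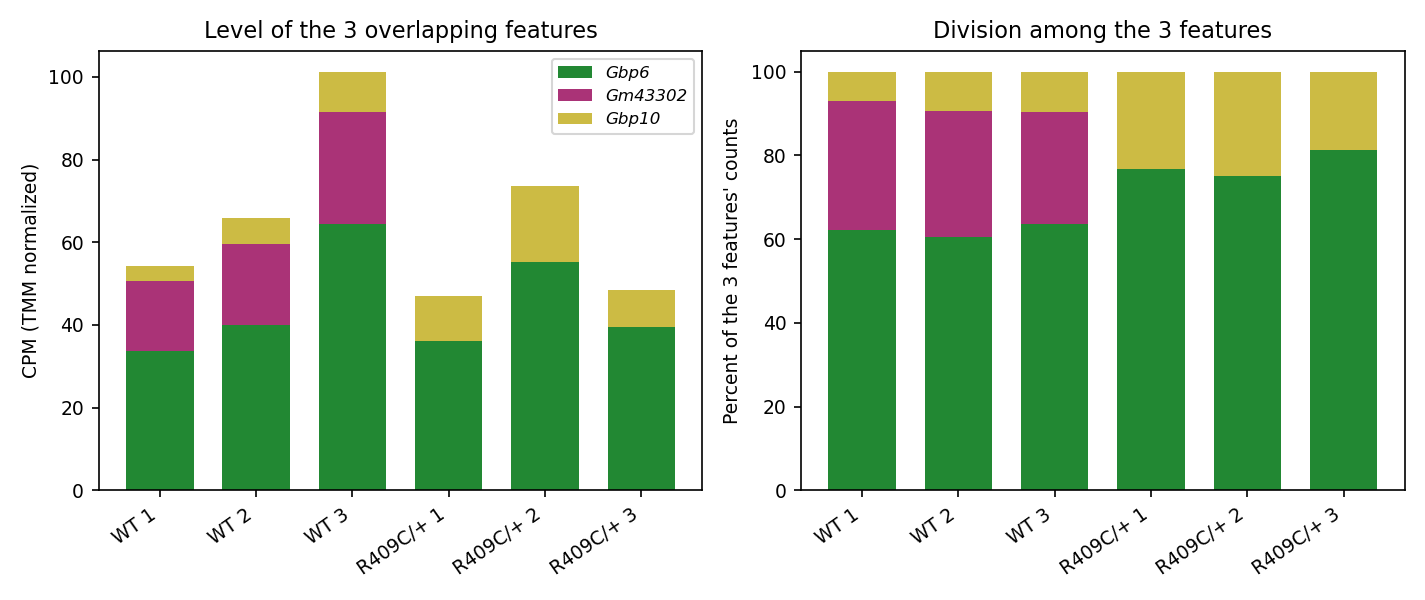
Left, CPM of *Gbp6*, *Gm43302*, and *Gbp10* stacked for each of the 6 mice. Right, the percent of the 3 genes' counts that each gene took, in which *Gm43302* holds 26.8% to 30.8% in WT and none in *Lztr1* R409C/+ mice.

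Sequences before RefSeq start sites of some of the other genes are shown because members of these families are textbook targets of interferon through 2 short motifs. GAS, an element of genes induced by IFN-γ, was searched as TTCNNNGAA, and ISRE, which IRFs bind, as GAAANNGAAA, both on both strands of the 250 bases before the start site in the RefSeq promoter table (GRCm38.p6). The table held 6 of the 10 genes, *Gbp2*, *Gbp3* (with 2 start sites), *Gbp7*, *Irgm1*, *Irgm2*, and *Igtp*; *Gbp6*, *Gbp9*, *Gbp10*, and *Gm43302* were not analysed here. ISRE letters occurred in 6 of the 6 genes, against 3.46% of 27025 genes in the table, and GAS letters in 3 of the 6, against 8.13%. Both occurred in *Gbp7*, *Irgm2*, and *Igtp*, against 0.4% of the genes in the table. A match of letters is a description and does not show that a factor was bound in these hearts. The RefSeq start sites are not the outer ends of the GENCODE gene spans given in this text. Each stretch printed below lies wholly or partly within the span of its gene. Each line below gives 70 bases on the gene's own strand with the matched letters in capitals, and the positions in GRCm39 come from an exact match of the 250 bases to that build. They are chr3:142326335-142326404 (plus strand) for *Gbp2*, chr3:142265733-142265802 (plus strand) for the first start site of *Gbp3*, chr3:142235988-142236057 (plus strand) for *Gbp7*, chr11:48762248-48762317 (minus strand) for *Irgm1*, chr11:58105704-58105773 (plus strand) for *Irgm2*, and chr11:58090312-58090381 (plus strand) for *Igtp*.
Gbp2: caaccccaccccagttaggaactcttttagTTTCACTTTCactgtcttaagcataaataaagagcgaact
Gbp3: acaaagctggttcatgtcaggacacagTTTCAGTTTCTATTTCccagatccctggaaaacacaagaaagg
Gbp7: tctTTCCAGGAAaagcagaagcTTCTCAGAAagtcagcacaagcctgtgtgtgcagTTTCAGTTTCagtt
Irgm1: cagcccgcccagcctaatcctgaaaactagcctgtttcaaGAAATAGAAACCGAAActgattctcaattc
Irgm2: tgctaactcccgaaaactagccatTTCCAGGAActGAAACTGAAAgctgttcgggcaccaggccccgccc
Igtp: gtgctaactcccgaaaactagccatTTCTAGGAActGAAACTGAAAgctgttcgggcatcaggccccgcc
The ISRE letters stood on the other strand in the 3 *Gbp* genes and on the gene's strand in the 3 IRG genes, and began between 64 and 24 bases before the start site, counted at the base farthest from it. *Gbp3* and *Irgm1* each held a pair of ISRE matches that overlap by the letters GAAA. The stretches of *Irgm2* and *Igtp* differed at 2 of 69 aligned bases. The second start site of *Gbp3* had neither motif in its 250 bases.

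*Gbp2*, *Gbp3*, and *Gbp7* lie in a cluster on the plus strand of chromosome 3. *Gbp2* (chr3:142326349-142343779) encodes a prenylated GBP that is among those recruited to *Toxoplasma* vacuoles. It had 12.0, 14.7, and 11.7 CPM in WT and 12.5, 14.7, and 16.2 CPM in *Lztr1* R409C/+ mice. The groups overlapped, and the log2 fold change was 0.18 (standard error 0.18) and became 0.093 without *Lztr1* R409C/+ replicate 3 and 0.29 without WT replicate 2. *Gbp3* (chr3:142265731-142278979) had 13.4, 13.7, and 15.8 CPM in WT and 20.8, 17.9, and 14.1 CPM in *Lztr1* R409C/+ mice. The groups overlapped through *Lztr1* R409C/+ replicate 3, and the log2 fold change was 0.30 (standard error 0.18) and became 0.16 without *Lztr1* R409C/+ replicate 1. *Gbp7* (chr3:142236044-142255910) had 26.4, 21.3, and 21.6 CPM in WT and 25.8, 30.5, and 22.3 CPM in *Lztr1* R409C/+ mice. These groups overlapped as well, and the log2 fold change was 0.18 (standard error 0.17) and became 0.052 without *Lztr1* R409C/+ replicate 2 and 0.29 without WT replicate 1 or *Lztr1* R409C/+ replicate 3.

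*Gbp9* (chr5:105224332-105287452, minus strand) was the steadiest of the chromosome 5 genes. It had 28.0, 30.3, and 27.4 CPM in WT and 33.0, 30.7, and 28.1 CPM in *Lztr1* R409C/+ mice, with overlap and a log2 fold change of 0.10 (standard error 0.15), which was 0.035 without *Lztr1* R409C/+ replicate 1 and 0.16 without *Lztr1* R409C/+ replicate 3. Of its 100-base windows, 98.4% were its own, so the sharing of reads described for *Gbp6* and *Gbp10* touches little of it.

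The 3 IRG genes lie on chromosome 11, *Irgm1* at chr11:48752795-48763164 on the minus strand and *Igtp* and *Irgm2* at chr11:58089840-58098417 and chr11:58090444-58113615 on the plus strand. *Irgm1*, whose product acts at the Golgi, lysosomes, and mitochondria, had 17.7, 15.2, and 16.2 CPM in WT and 18.9, 21.2, and 18.8 CPM in *Lztr1* R409C/+ mice. All 3 *Lztr1* R409C/+ mice lay above all 3 WT mice, as in 8.3% of the tested genes, and the log2 fold change was 0.26 (standard error 0.16). *Irgm1* by library size only had 16.3, 13.7, and 22.6 CPM in WT and 15.1, 20.9, and 20.6 CPM in *Lztr1* R409C/+ mice, so the groups overlapped, and its log2 fold change was 0.10. *Irgm2*, a Golgi-associated regulator, had 20.8, 26.1, and 28.5 CPM in WT and 21.2, 38.8, and 25.7 CPM in *Lztr1* R409C/+ mice. The groups overlapped, and the log2 fold change of 0.18 (standard error 0.22) turned to -0.11 without *Lztr1* R409C/+ replicate 2 and was 0.35 without *Lztr1* R409C/+ replicate 1. *Igtp*, a regulator at the ER and lipid droplets, had 10.9, 10.4, and 9.90 CPM in WT and 8.89, 19.3, and 15.4 CPM in *Lztr1* R409C/+ mice. The 3 WT mice lay close together and within the range of the *Lztr1* R409C/+ mice, and the log2 fold change was 0.48 (standard error 0.24) and became 0.22 without *Lztr1* R409C/+ replicate 2 and 0.73 without *Lztr1* R409C/+ replicate 1. With library size only, the log2 fold changes of the 7 genes outside the locus with shared sequence lay between -0.06 for *Gbp9* and 0.37 for *Igtp*, and that of *Gbp3* was 0.093. *Irgm2* and *Igtp* share 162 exonic bases in the annotation. *Gbp7* shares 637 exonic bases with *Gm43802*, and 10.1% of its 100-base windows occurred in the transcripts of other genes.

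**Figure D3:**
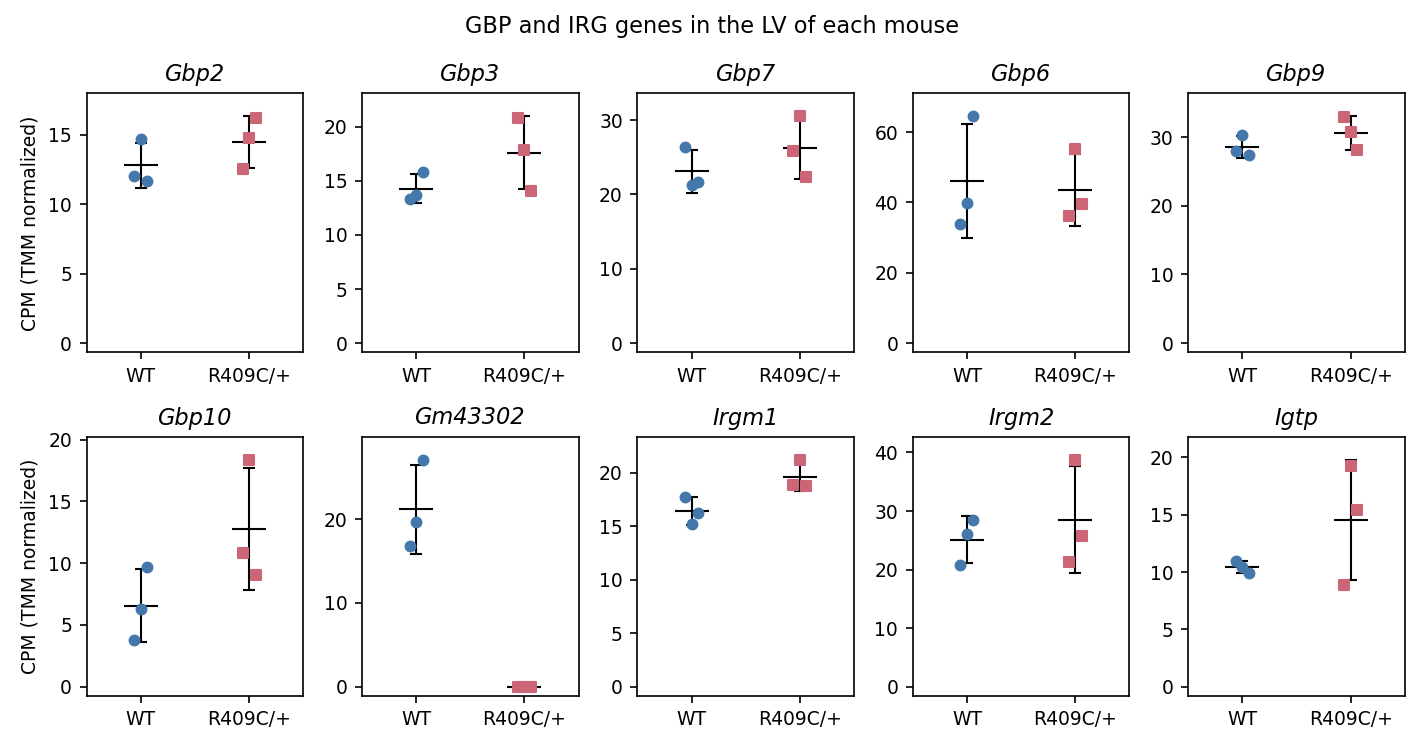
CPM of each of the 10 genes in the 3 WT (circles) and 3 *Lztr1* R409C/+ (squares) mice, with the mean and SD. On this TMM scale, *Gm43302* and *Irgm1* show no overlap between the genotypes, whereas *Irgm1* overlaps with library size only.

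Of the 9 genes other than *Gm43302*, 8 overlapped between the genotypes, 1 was higher without overlap, and 0 were lower without overlap, against 8.3% and 7.24% of the tested genes. For 8 of the 9, the log2 fold change was above 0, as it was for 51.4% of the tested genes, and the median was 0.18, against 0.01 over all tested genes. When each mouse was left out in turn, this median ranged from 0.16 without *Lztr1* R409C/+ replicate 2 to 0.29 without *Lztr1* R409C/+ replicate 3. With library size in place of TMM, all 9 genes overlapped, the genes above 0 became 7 of 9, and the median of the 9 became 0.06, while the median over all tested genes moved to -0.14. By edgeR (quasi-likelihood test, Benjamini-Hochberg adjustment), 0 of the 9 were past an adjusted p of 0.05 (0.0349% of tested genes in the higher direction), and edgeR's exact test and DESeq2 also gave 0 (0.79% of tested genes higher and 0.0813% lower by DESeq2, 0.72% higher and 0.0755% lower by the exact test). At an unadjusted p under 0.05, 1 of the 9, *Gbp10*, was higher and 0 were lower, against 5.77% and 2.86% of the tested genes, and the higher count was 0 without WT replicate 2 or *Lztr1* R409C/+ replicate 2 and 2 without *Lztr1* R409C/+ replicate 1 or 3. These counts are given without a reading, since the genes were chosen with results of this comparison known.

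Levels per mouse did not follow a single order. On the TMM scale, *Lztr1* R409C/+ replicate 2 had the highest level of 5 of the 9 genes, *Gbp7*, *Gbp10*, *Irgm1*, *Irgm2*, and *Igtp*. On this scale, *Lztr1* R409C/+ replicate 1 had the highest *Gbp3* and *Gbp9* but the lowest *Igtp*, and WT replicate 1 had the lowest level of 4 genes. With library size only, WT replicate 3 was highest for *Gbp3*, *Gbp6*, *Gbp9*, *Irgm1*, and *Irgm2*, and *Lztr1* R409C/+ replicate 2 for *Gbp7*, *Gbp10*, and *Igtp*. Over the 7 genes outside the locus with shared sequence, a score per mouse (the mean over genes of log2 CPM centered on each gene's own mean) was -0.12, -0.10, and -0.11 for WT mice and -0.02, 0.31, and 0.04 for *Lztr1* R409C/+ mice. The difference of 0.22 fell to 0.12 without *Lztr1* R409C/+ replicate 2 and to 0.08 with library size only. Between pairs of these 7 genes, Pearson's r of log2 CPM over the 6 mice ranged from -0.20 (*Gbp2* and *Gbp3*) to 0.83 (*Gbp7* and *Irgm1*), with a median of 0.36 over 21 pairs, all of which share libraries and scaling. Among 11790 tested genes outside the families with a mean above 1 log2 CPM, those most like the score over the 6 mice were *Kcne1* (r = 0.99), *Asl* (0.98), *Col4a3* (0.98), *Ccna2* (0.98), and *Mest* (0.97). In the same order, Spearman's rho was 0.94, 0.83, 0.89, 0.77, and 0.89. These genes were picked as the highest of 11790 values over only 6 mice, so nothing is read from the size of r. *Kcne1*, a potassium channel subunit, had 4.05, 4.35, and 4.57 CPM in WT and 6.33, 21.8, and 9.57 CPM in *Lztr1* R409C/+ mice, and like the score it was highest in *Lztr1* R409C/+ replicate 2.

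To compare levels between genes, CPM was divided by the length of the canonical transcript. In WT mice, *Gbp6* was highest with 10.1 ± 3.55 CPM per kb (SD, n = 3), and *Gbp10* was lowest with 1.52 ± 0.68. Between them came *Irgm1* (7.85 ± 0.62), *Irgm2* (7.20 ± 1.13), *Gbp3* (5.19 ± 0.48), *Gbp9* (5.05 ± 0.28), *Gbp2* (5.03 ± 0.64), *Gm43302* (4.91 ± 1.23), *Igtp* (4.56 ± 0.23), and *Gbp7* (4.09 ± 0.51). Of the 9 pairs of neighbors in this order, 7 overlapped between WT mice, and *Irgm2* over *Gbp3* and *Gbp7* over *Gbp10* did not. The places of *Gbp6*, *Gm43302*, and *Gbp10* rest on the division of shared reads.

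**Figure D4:**
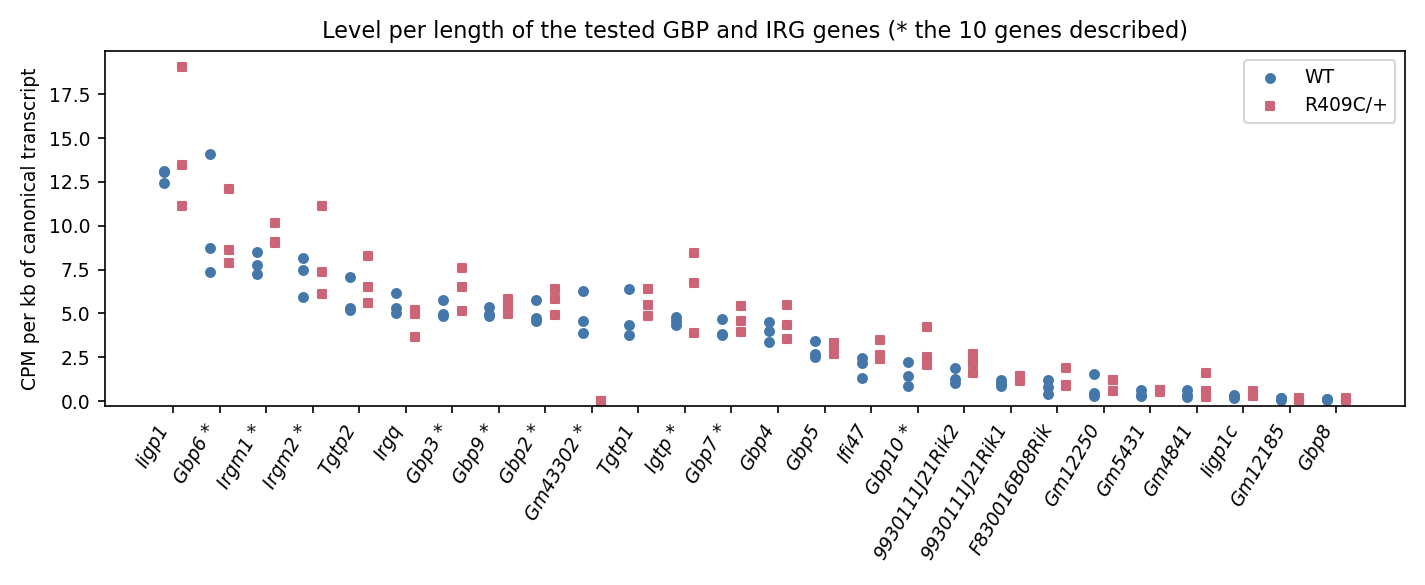
CPM per kb of canonical transcript for the 26 tested GBP and IRG genes in order of the WT mean, with WT mice as circles and *Lztr1* R409C/+ mice as squares. *Iigp1* has the highest WT mean, 12.9, and *Gm43302* is the only gene with all *Lztr1* R409C/+ mice at 0.

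The rest of the 2 families comprised 19 genes, of which 18 had a count and 16 were tested. *Iigp1*, an effector IRG, had the highest mean level of both families in WT mice, with 12.9 CPM per kb, although *Gbp6* in WT replicate 3 reached 14.1. Its 37.9, 39.7, and 39.9 CPM in WT overlapped the 40.9, 57.8, and 33.8 CPM in *Lztr1* R409C/+ mice (log2 fold change 0.17). The effector genes *Tgtp1* and *Tgtp2* had log2 fold changes of 0.20 and 0.21, and *Ifi47* 0.51. *Gbp4* and *Gbp5*, the latter a GBP that acts on inflammasomes, had 0.16 and 0.10, and *Gbp8*, at 0.15 to 0.21 CPM in WT mice, had 0.02. The others above 0 were *Gm4841* (1.05), *Iigp1c* (0.67), *9930111J21Rik2* (0.62), *F830016B08Rik* (0.58), *Gm5431* (0.44), *9930111J21Rik1* (0.39), and *Gm12250* (0.35). Reads of some of these genes may be split between copies, since 84.8% and 80.4% of the 100-base windows of *Tgtp1* and *Tgtp2*, and 64.6% and 40.3% of those of *9930111J21Rik1* and *9930111J21Rik2*, occurred in the transcripts of another gene. For *Gm12250* the share was 100%, but the match carries the same gene name, so it does not show a separate copy. *Irgq* (-0.26) and *Gm12185* (-0.41) were below 0.

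In total, 14 of these 16 genes had a log2 fold change above 0, against 51.4% of the tested genes, with a median of 0.28, and 12 of 16 with a median of 0.08 under library size only. The median was 0.16 without WT replicate 1 and 0.15 without *Lztr1* R409C/+ replicate 2. At an adjusted p of 0.05, 0 of the 16 were called by edgeR (quasi-likelihood test, Benjamini-Hochberg adjustment), by DESeq2, or by edgeR's exact test, and at an unadjusted p under 0.05, 1 of the 16 was higher, *9930111J21Rik2*, and 0 were lower, against 5.77% and 2.86% of the tested genes. This gene had 11.4, 7.59, and 6.30 CPM in WT and 16.1, 13.2, and 9.65 CPM in *Lztr1* R409C/+ mice, with overlap (edgeR unadjusted p = 0.0297, adjusted p = 0.532), but without overlap by library size only. The count of 1 became 0 without *Lztr1* R409C/+ replicate 2 or with library size only, and 4 without WT replicate 3. *Gbp2b* and *Gbp11* were too low to be tested, with at most 0.179 and 0.294 CPM in any mouse, and *Irgc*, whose expression is known from testis, had 0 counts in all 6 mice.

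The genes upstream of these families were taken from lists of IFN-γ and type I interferon signaling. *Ifng* itself was listed at 0 counts in all 6 mice, which at these depths allows up to 0.0541 CPM, and *Ifnb1* had counts only in WT replicate 2 (0.0466 CPM). The receptor subunits *Ifngr1* and *Ifngr2* had 40.9 ± 1.75 and 126.1 ± 14.2 CPM in WT and 49.0 ± 6.61 and 151.1 ± 24.1 CPM in *Lztr1* R409C/+ mice (SD, n = 3 each), log2 fold changes of 0.26 each. Neither overlapped between the groups on the TMM scale, as in 8.3% of the tested genes, and both overlapped with library size only. The factor *Irf1* had 10.5, 10.9, and 13.9 CPM in WT and 11.3, 13.7, and 14.5 CPM in *Lztr1* R409C/+ mice, with overlap and a log2 fold change of 0.16.

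Across the 41 tested genes of the 3 interferon lists, 0 were past an adjusted p of 0.05 by edgeR (quasi-likelihood test, Benjamini-Hochberg adjustment), and DESeq2 and edgeR's exact test called 2 each, both higher, against 0.79% and 0.72% of all tested genes. At an unadjusted p under 0.05, 9 were higher and 1 was lower, against 5.77% and 2.86% of all tested genes. In IFN-γ signaling, 1 of 10 was higher and 1 lower at this threshold, and the lower count was 0 with library size only or without any 1 mouse other than *Lztr1* R409C/+ replicate 2. *Irf8*, a factor of macrophages and dendritic cells, had 3.12, 2.31, and 3.06 CPM in WT and 4.51, 5.84, and 8.87 CPM in *Lztr1* R409C/+ mice (log2 fold change 1.18, edgeR unadjusted p = 0.0011, adjusted p = 0.215), without overlap, but with overlap by library size only. *Jak1*, a kinase of both receptors, was lower without overlap at 166, 160, and 162 CPM against 109, 143, and 127 CPM (log2 fold change -0.36, edgeR adjusted p = 0.555). In type I interferon signaling, 3 of 9 were higher and 0 were lower. *Irf7*, which amplifies type I interferon, had 6.76, 4.36, and 3.94 CPM in WT and 9.35, 12.5, and 13.4 CPM in *Lztr1* R409C/+ mice (log2 fold change 1.23, edgeR adjusted p = 0.18), and the receptor kinase *Tyk2* had a log2 fold change of 0.52 (edgeR adjusted p = 0.402). Neither of them overlapped between the groups, although *Tyk2* did with library size only.

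Among other genes induced by IFN-γ, 5 of 22 were higher and 0 were lower at an unadjusted p under 0.05, against 5.77% and 2.86% of the tested genes, with a median log2 fold change of 0.31. The count of higher genes was 1 without WT replicate 1 or *Lztr1* R409C/+ replicate 2, and 3 without *Lztr1* R409C/+ replicate 1 or 3, and the lower count was 1 without *Lztr1* R409C/+ replicate 2. With library size only the higher count was 1 and the median was 0.13, and the higher count in type I interferon signaling was also 1. The lysosomal reductase gene *Ifi30* had 2.69, 3.00, and 2.71 CPM in WT and 4.08, 5.08, and 5.79 CPM in *Lztr1* R409C/+ mice (log2 fold change 0.83, edgeR adjusted p = 0.308), without overlap, but with overlap by library size only. *B2m*, the light chain of MHC class I, had a log2 fold change of 0.49 (edgeR adjusted p = 0.532) with overlap. The immunoproteasome gene *Psmb8* had 5.73, 5.40, and 10.2 CPM in WT and 10.2, 9.83, and 11.3 CPM in *Lztr1* R409C/+ mice (log2 fold change 0.55, edgeR adjusted p = 0.564). *Nlrc5*, the activator of MHC class I genes, had a log2 fold change of 0.32 with overlap (edgeR adjusted p = 0.739).

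Macrophage markers moved with the genotype beside these lists. The summed level of 8 markers was 122 to 126 CPM in WT and 212 to 231 CPM in *Lztr1* R409C/+ mice, all 8 were higher at an unadjusted p under 0.05 by edgeR's quasi-likelihood test (7 without WT replicate 1, 5 with library size only), against 5.77% of all tested genes. *C1qb* and *C1qc* passed Benjamini-Hochberg adjustment by edgeR (adjusted p = 0.024 each), as did 0.0349% of all tested genes in this direction, which 0 of the 8 did when any 1 mouse was left out or with library size only. DESeq2 and edgeR's exact test each called 4 of the 8 higher, against 0.79% and 0.72% of all tested genes. Sums of T and NK cell markers were 0.62 to 1.30 CPM and 1.80 to 2.57 CPM, of B cell markers 0.717 to 1.54 and 1.76 to 3.10 CPM, and of neutrophil markers 0.433 to 0.978 and 1.03 to 1.48 CPM, with *Ly6g* at 0 in all mice. Of the tested neutrophil markers, *S100a8* had a log2 fold change of 1.91 without overlap, and *S100a9* had -0.0058 with overlap. With library size only, the macrophage sums were 114 to 169 and 173 to 254 CPM, and the T and NK cell sums overlapped. Sums of cardiomyocyte, atrial, endothelial, fibroblast, mural, and erythroid markers overlapped between the genotypes, and the cardiomyocyte markers were at 20560 to 34990 CPM, as the heart label states. Single markers within these sums passed an unadjusted p under 0.05 by edgeR's quasi-likelihood test, against 5.77% of all tested genes higher and 2.86% lower. The fibroblast genes *Lum* and *Tcf21* (log2 fold changes 0.61 and 0.54) and the endothelial gene *Emcn* (0.40) were higher without overlap, the smooth muscle gene *Myh11* was lower without overlap (-0.71), and the erythroid genes *Hba-a1* and *Alas2* were higher with overlap (1.02 and 1.08). *Emcn* and *Myh11* overlapped with library size only. Other fibroblast, endothelial, and mural markers had values on either side of 0, such as -0.25 for *Col1a1* of fibroblasts, -0.24 for *Kdr* of endothelial cells, and 0.29 for *Kcnj8* of mural cells. All 4 erythroid markers were above 0, each with overlap, and their median was 0.99. The other erythroid genes, *Hbb-bt* and *Hbb-bs*, had log2 fold changes of 0.90 and 0.97. The part of macrophages or of these other cells in the GBP, IRG, and interferon values was not tested.

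**Figure D5:**
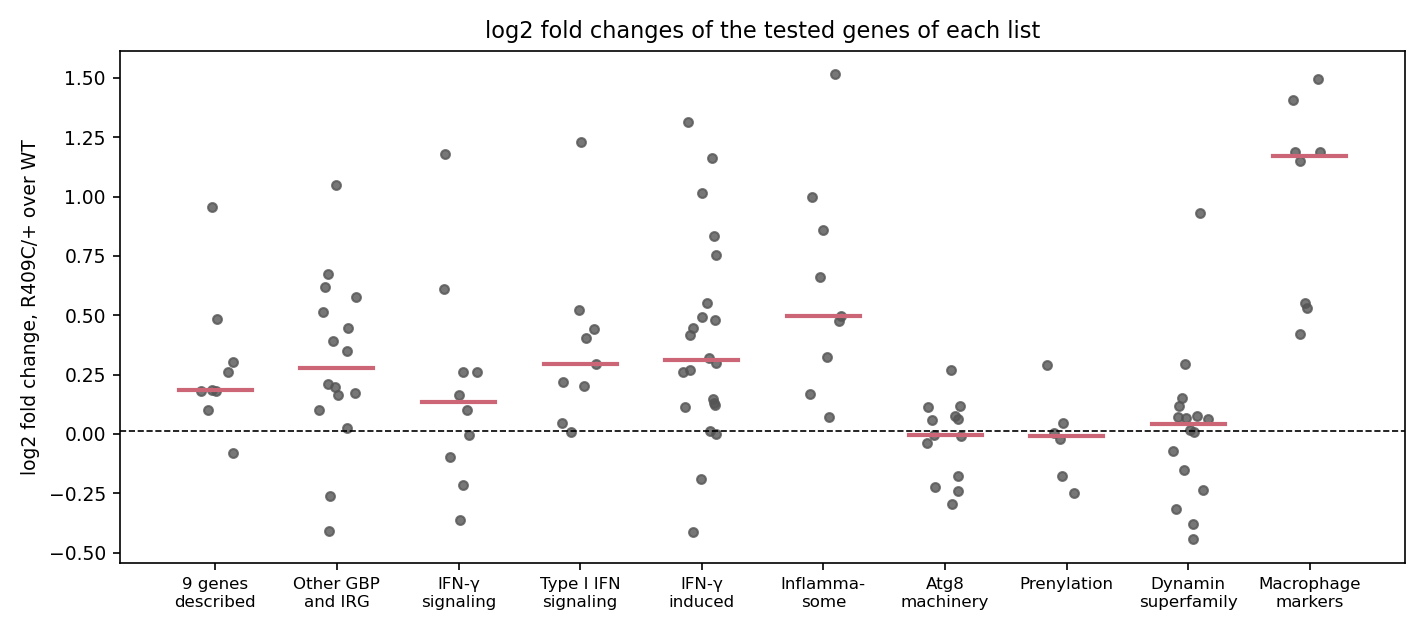
log2 fold change of each tested gene (points) by list, with the list's median (bar) and the median of all tested genes (dashed line). *Gm43302* is left out because its fitted fold change against 0 counts is no bound. The 9 genes described have a median of 0.18, the macrophage markers 1.17, and the Atg8 machinery stands at the dashed line.

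GBPs and IRGs act with other systems, of which 4 lists held 44 tested genes. By edgeR (quasi-likelihood test, Benjamini-Hochberg adjustment), 0 were past an adjusted p of 0.05, and DESeq2 and edgeR's exact test called 1 each, higher, against 0.79% and 0.72% of all tested genes. At an unadjusted p under 0.05, 3 were higher and 2 were lower, against 5.77% and 2.86% of the tested genes. All 3 higher genes belonged to the 9 inflammasome genes, which GBPs activate by exposing microbial products, and their count was 1 without *Lztr1* R409C/+ replicate 1 or with library size only. *Zbp1*, a nucleic acid sensor, had 0.635, 0.652, and 0.791 CPM in WT and 1.48, 2.07, and 2.41 CPM in *Lztr1* R409C/+ mice (log2 fold change 1.52, edgeR unadjusted p = 7.8e-04, adjusted p = 0.215). *Aim2*, a DNA sensor, and *Casp4*, which binds lipopolysaccharide, had log2 fold changes of 1.0 and 0.86 (edgeR adjusted p = 0.455 and 0.457), and none of the 3 overlapped between the groups, as in 8.3% of the tested genes. *Casp1* and *Gsdmd* had log2 fold changes of 0.17 and 0.33.

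The Atg8 conjugation machinery, which is needed to place GBPs and effector IRGs on vacuoles, had 0 of 13 genes past an unadjusted p of 0.05, and its log2 fold changes lay between -0.30 for *Traf6* and 0.27 for *Trim21*. The enzymes of prenylation, which gives some GBPs their membrane anchor, had 0 of 6. Among other genes of the dynamin superfamily list, which also holds *Ehd* genes, 0 of 16 were higher and 2 were lower, against 5.77% and 2.86% of the tested genes. The lower count was 0 with library size only, 3 without *Lztr1* R409C/+ replicate 2, and 1 without any other single mouse, and the higher count was 1 without WT replicate 3. *Mfn1*, which fuses outer mitochondrial membranes, had 357, 343, and 411 CPM in WT and 245, 284, and 287 CPM in *Lztr1* R409C/+ mice (log2 fold change -0.45, edgeR adjusted p = 0.47). *Opa1*, which fuses the inner membrane, had 253, 280, and 255 CPM in WT and 182, 229, and 195 CPM in *Lztr1* R409C/+ mice (log2 fold change -0.38, edgeR adjusted p = 0.545). Both were lower without overlap, as in 7.24% of tested genes, although *Mfn1* overlapped with library size only. Of the interferon-induced members of this superfamily, *Mx1* and *Mx2* had log2 fold changes of 0.93 and 0.15, with overlap.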

How the data were processed

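RNA from the LVs of 6 mice was sequenced, 1 library per mouse. The authors trimmed reads with Trim Galore, aligned them to GRCm39 with HISAT2, excluded rRNA, and deposited whole-number counts per gene made with StringTie; versions, the annotation release, and the use of strand are not given in the sources used here. The authors also deposited their edgeR comparison (log2 fold changes, log2 CPM, p-values, and adjusted p-values), of which only gene names were used. Genes were matched by gene ID to GENCODE (56236 of 56923 listed genes), and canonical transcripts gave positions, lengths, and sequences.

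edgeR 4.0.16 (R 4.3.3) was run on the counts: filterByExpr left 17212 of 27480 genes with a count, followed by TMM and the robust quasi-likelihood test, two-sided, at a Benjamini-Hochberg adjusted p of 0.05. Standard errors were derived from the log2 fold change and its F statistic. TMM factors lay between 0.800 and 1.39, and the common biological coefficient of variation was 26.1%. DESeq2 1.42.0 and edgeR's exact test were alternatives. The tests on counts were checked on simulated data, and the outcome of that check is not given here. No 2 libraries shared the same count in more than 1.13% of tested genes. Positions given are 1-based.

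The 10 genes and all lists were chosen with earlier results of these data known. Genes named beside the 10 are every other GBP or IRG gene, *Lztr1*, from each pathway list up to 2 tested genes in each direction with the smallest unadjusted p (only those with a p under 0.05 are named), *Irf1*, *Ifng*, *Ifngr1*, *Ifngr2*, *Nlrc5*, and *Psmb8*, the 5 genes most like the score, and defining markers at 0. *Casp4*, *Ifnb1*, *Casp1*, *Gsdmd*, *Traf6*, *Trim21*, *Mx1*, *Mx2*, and the other markers were named after their values were seen. Counts of each list, and overlap of the groups, under other scalings were added after seeing the data. 1 further gene is not reported here.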

Additional observations from a re-analysis of the deposited data

How the results depend on the processing

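For all tested genes, the main counts of 6 higher and 1 lower became 993 and 493 at an unadjusted p under 0.05, 15 and 6 with library size only, 136 and 14 with DESeq2, and 124 and 13 with edgeR's exact test. Without a filter 19 were higher, and with the replicate number as a block 0 were. The lower count was 0 where every mouse needed 10 counts and where the overlapping genes were summed, since both remove *Gm43302*. Leaving out 1 mouse gave 1 to 3 higher and 1 to 2 lower genes. GBP and IRG genes outside the 10 past the threshold numbered 0, or 1 unadjusted. Interferon genes numbered 0, or 10 unadjusted, 2 with DESeq2, 2 with the exact test, and 1 without a filter. Partner genes numbered 0, or 5 unadjusted, 1 with DESeq2, and 1 with the exact test. With library size only, the median log2 fold change of the 10 genes moved from 0.18 to 0.045 and the score difference from 0.22 to 0.083. Over the settings tried, the log2 fold change changed sign for *Gbp6* (2 of 15), *Gbp9* (1, -0.06), and *Irgm2* (1, -0.11). The fitted value of *Gm43302* was -13.55, -12.90 with DESeq2, and -13.23 without WT replicate 3. Between mice with the same replicate number, deviations from the group means had correlations of -0.001, 0.02, and -0.06. These values do not show whether mice shared a litter or a batch. The cause of the other shifts was not tested. The precision is limited by 3 mice per group and a biological coefficient of variation of 26.1%.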
